A study of Homo sapiens with 12 samples.

Results

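Messenger RNA of 10 genes that move calcium across the endoplasmic reticulum (ER) membrane, or that refill the ER with calcium, was measured in cultures exposed to the organochlorine pesticide cis-chlordane. The genes are the pumps ATP2A2 and ATP2A3, the release channels ITPR1, ITPR2, ITPR3 and RYR2, the calcium sensors STIM1 and STIM2, the plasma membrane channel ORAI1 and the ER channel TMCO1. They were taken by name from a table of 28278 gene symbols, and all 10 were present and passed the filter on low counts in every comparison. The cells were motor neuron cultures derived from WA09-Islet1-GFP, human embryonic stem cells with a GFP reporter of the transcription factor Islet1. Cultures had received cis-chlordane or the vehicle DMSO for 16 hours before they were sorted by FACS into GFP-positive and GFP-negative cells. All groups derive from this 1 line. The 12 libraries form 4 groups of 3, namely control GFP-positive, treated GFP-positive, control GFP-negative and treated GFP-negative. The labels state a dose of 10 µM, and the methods of the study state a higher dose. Because titles of treated samples open with the word untreated too, the treatment was taken from the later part of each title, which matched the treatment entry.

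The ER is the main calcium store of most cells, and many of its folding enzymes and chaperones work only at high luminal calcium. SERCA pumps spend ATP to carry calcium into the ER, whereas IP3 receptors and ryanodine receptors let it out when a messenger or cytosolic calcium opens them. When the store runs low, STIM proteins in the ER membrane sense the fall and open ORAI channels in the plasma membrane, a route called store-operated calcium entry. In motor neurons, which hold little cytosolic calcium buffer, ER calcium handling is of long-standing interest in studies of ALS.

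The libraries held 2.34e+07 to 3.83e+07 counts assigned to genes. Expression is given in counts-per-million units (CPM) scaled by TMM, and 3 counts correspond to 0.0795 to 0.130 CPM. ISL1, the gene of the sorted reporter, averaged 65.7 CPM in control GFP-positive and 2.57 CPM in control GFP-negative libraries, and 12.0 and 0.549 CPM after treatment. The summed level of 8 motor neuron markers ranged from 1215 to 1430 CPM in control GFP-positive libraries, from 296 to 440 CPM in treated GFP-positive libraries, from 229 to 251 CPM in control GFP-negative libraries and from 70.0 to 93.8 CPM in treated GFP-negative libraries, and the part of this shift in the results was not tested. The ER chaperone gene HSPA5 rose by 3.38 on the log2 scale in GFP-positive cells (adjusted p = 1.2e-17) and by 3.54 in GFP-negative cells (adjusted p = 4.7e-06, edgeR quasi-likelihood test, Benjamini-Hochberg adjusted). The control GFP-negative library of replicate 3 stood apart from its group, with correlations of log2 CPM across genes of 0.946 and 0.963 with replicates 1 and 2, against at least 0.978 for the other pairs within groups. Because sorted populations were measured in bulk, fewer cells of a type and less RNA per cell cannot be told apart.

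All positions are given on hg38 with the gene models of GENCODE release 44. ATP2A2 lies at chr12:110280756-110351093 on the plus strand and ATP2A3 at chr17:3923870-3964464 on the minus strand. The IP3 receptor genes lie at chr3:4493345-4847506 (ITPR1, plus strand), chr12:26335352-26833194 (ITPR2, minus strand) and chr6:33620365-33696574 (ITPR3, plus strand), and RYR2 at chr1:237042184-237833988 on the plus strand. STIM1 lies at chr11:3854527-4093210, STIM2 at chr4:26857601-27025381 and ORAI1 at chr12:121626509-121643218, each on the plus strand, and TMCO1 at chr1:165724293-165827755 on the minus strand. The exons of ITPR3 share 1025 bases, 10.4% of their length, with UQCC2 on the opposite strand, and those of TMCO1 share 142 bases, 2.67%, with UCK2 on the opposite strand. Whether reads were counted by strand was not given in the sources used here, so values of ITPR3 are uncertain. UQCC2 averaged 53.0 CPM in control and 36.3 CPM in treated GFP-positive libraries, and 91.8 and 74.4 CPM in GFP-negative ones. ITPR3 averaged 0.643 and 1.04 CPM, and 3.20 and 4.71 CPM, in the same groups. The part of UQCC2 reads in the ITPR3 values was not tested and is not limited to the share of exon length.

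Promoters are shown because ER stress regulators bind known elements close to the start of their target genes, so that the members can be set beside the chaperone genes that rose in the same libraries. RefSeq promoters (GRCh38.p14) were found for 7 of the 10 genes and none for ATP2A3, ITPR2 and ORAI1, and the 250 bases before each start were searched on both strands. Where RefSeq lists several starts of a gene, all were searched and a single promoter is printed. A gene was counted when any of its starts matched, whereas the shares of all promoters count each start separately. Counts of genes can therefore run high against those shares. The ER stress response element (ERSE: CCAAT, 9 bases of any kind, then CCACG) was found in 0 of the 7 members and in 0.074% of all 35116 promoters. Among the 18 genes of calcium-binding proteins of the ER and Golgi lumen, 5 held the ERSE, namely CALR, CANX, HSPA5, HSP90B1 and PDIA6. With the last base left free, a form chosen after the sequences were seen, the element was found in ATP2A2 alone of the 7 members, 63 to 46 bases before its start, and in 0.282% of all promoters. The members held CCAAT in 4 of 7 (32% of all promoters) and CCACG in 5 of 7 (33.5% of all promoters), which are parts of the ERSE. The members held no TGACGTG (1.68% of all promoters), no core of the C/EBP-ATF response element (3.14%) and no ERSE-II, which joins the reverse of CCAAT to CCACG over 1 base (0.0513%). These matches are descriptions of letters in a window and not of binding.

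The promoters of ATP2A2, the most abundant pump, and of TMCO1, ITPR1 and RYR2, which rose in GFP-positive cells, are printed 5′ to 3′ on the strand of the gene, with CCAAT and CCACG or their reverse complements in capitals. They lie at chr12:110280997-110281246 (ATP2A2, plus strand), chr1:165768869-165769118 (TMCO1, minus strand), chr3:4493098-4493347 (ITPR1, plus strand) and chr1:237041934-237042183 (RYR2, plus strand). In ATP2A2 the capitals also mark the CCAC that ends the partial element.
ATP2A2: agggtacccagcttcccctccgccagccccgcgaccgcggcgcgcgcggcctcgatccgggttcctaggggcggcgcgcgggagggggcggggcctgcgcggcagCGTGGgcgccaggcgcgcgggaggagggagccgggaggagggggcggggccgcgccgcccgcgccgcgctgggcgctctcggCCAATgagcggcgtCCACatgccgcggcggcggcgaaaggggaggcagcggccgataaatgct
TMCO1: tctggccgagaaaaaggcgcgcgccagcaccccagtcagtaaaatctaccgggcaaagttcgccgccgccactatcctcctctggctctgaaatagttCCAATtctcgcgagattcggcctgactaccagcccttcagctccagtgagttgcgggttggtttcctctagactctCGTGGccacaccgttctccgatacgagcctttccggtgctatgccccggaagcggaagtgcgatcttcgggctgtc
ITPR1: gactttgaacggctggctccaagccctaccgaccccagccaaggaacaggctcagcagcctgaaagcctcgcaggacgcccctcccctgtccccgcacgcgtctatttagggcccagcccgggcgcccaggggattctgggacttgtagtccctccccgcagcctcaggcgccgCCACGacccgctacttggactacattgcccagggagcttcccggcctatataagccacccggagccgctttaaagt
RYR2: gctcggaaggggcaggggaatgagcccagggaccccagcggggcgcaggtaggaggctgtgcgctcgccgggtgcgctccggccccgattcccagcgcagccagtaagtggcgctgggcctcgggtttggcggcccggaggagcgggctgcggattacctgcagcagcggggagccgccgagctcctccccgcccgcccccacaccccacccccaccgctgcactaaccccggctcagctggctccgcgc
In ATP2A2 the capitals CCAAT and CCAC stand 9 bases apart, whereas in TMCO1 CCAAT and the reverse of CCACG stand much farther apart. ITPR1 held CCACG only, and RYR2 held neither.

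After treatment with cis-chlordane, 3 of the 4 release channels, the pump ATP2A3 and TMCO1 passed the test in GFP-positive cells. The release channel ITPR2 among them passed in only 5 of 15 alternative settings. The pump ATP2A2, the STIM sensors and ORAI1 did not pass the test. In this comparison of 3 treated with 3 control libraries, 4 of the 10 members rose (ITPR1, ITPR2, RYR2 and TMCO1) and 1 fell (ATP2A3), whereas of the 15333 genes tested 50.9% passed, 26.5% higher and 24.4% lower. All 5 also had a fold change of at least 2, the limit for a differentially expressed gene (DEG), which 24% of all genes reached. The groups did not overlap for 7 members, against 57.5% of all genes. The share of members that passed the test, 5 of 10, was near that of all genes, whereas the share that were DEGs was higher. The median log2 fold change of the members was 0.45, and that of all genes was 0.03. In GFP-negative cells 2 members rose (ORAI1 and TMCO1) and 1 fell (ATP2A3), whereas of the 15513 genes tested 31.5% passed, 15.3% higher and 16.2% lower. ATP2A3 and TMCO1 were DEGs there, as were 18.3% of all genes, and the groups did not overlap for 5 members, against 46.6% of all genes.

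**Figure D1:**
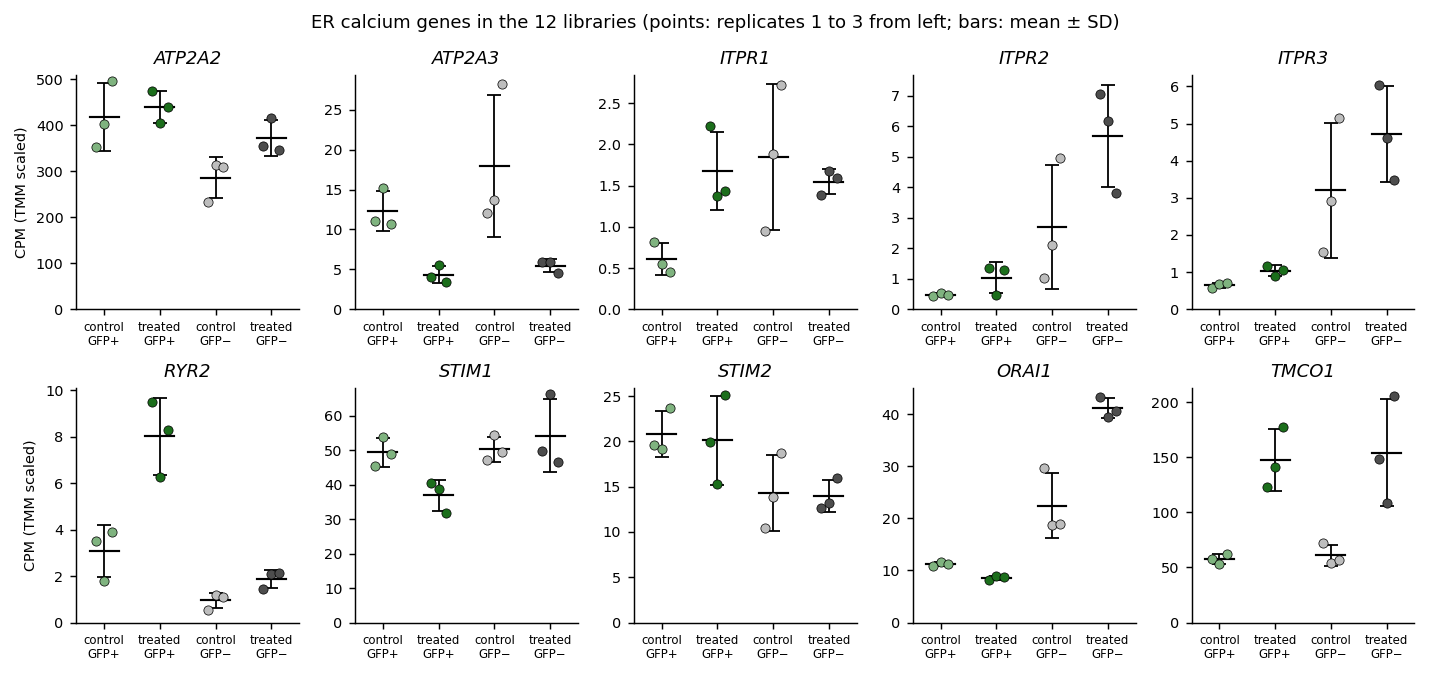
Expression of each member (TMM-scaled CPM, linear axis from 0) in the 4 groups of 3 libraries, with points for replicates 1 to 3 from left to right and bars for the mean ± SD. TMCO1 sits above its controls in both sort fractions, ATP2A3 below them, and ORAI1 is above its controls only among GFP-negative libraries.

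ATP2A2 encodes SERCA2, the pump that most cells rely on to load the ER. It measured 353, 403 and 497 CPM in control GFP-positive libraries and 474, 405 and 441 CPM in treated ones. These groups overlapped, with a log2 fold change of 0.14 (SE 0.16, 95% interval -0.18 to 0.47, adjusted p = 0.48 in the edgeR quasi-likelihood test, Benjamini-Hochberg adjusted). In GFP-negative cells it measured 234, 313 and 310 CPM in controls and 355, 416 and 346 CPM after treatment. Every treated GFP-negative library was above every control, but the log2 fold change of 0.36 (SE 0.17, 95% interval -0.01 to 0.74) did not pass (adjusted p = 0.13).

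ATP2A3 encodes SERCA3, a pump of lower calcium affinity known mainly from blood and secretory cells. It measured 11.1, 15.2 and 10.6 CPM in control GFP-positive libraries and 4.02, 5.50 and 3.47 CPM in treated ones. All treated libraries lay below all controls, and the gene fell by 1.44 on the log2 scale (SE 0.23, adjusted p = 3.5e-06). In GFP-negative cells it measured 12.0, 13.7 and 28.2 CPM in controls and 5.96, 5.89 and 4.53 CPM after treatment. The groups again did not overlap, although the control of replicate 3 was the highest by far, and the gene fell by 1.73 (SE 0.33, adjusted p = 0.0038). The fall passed under all 15 alternative settings in each sort fraction, between -1.66 and -1.04 in GFP-positive and between -1.95 and -1.26 in GFP-negative cells. The response of ATP2A3 did not differ detectably between the sort fractions (difference 0.21, 95% interval -0.68 to 1.10, adjusted p = 0.85).

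The IP3 receptors open when phospholipase C makes IP3, and ITPR1 is the main subtype of the brain. ITPR1 measured 0.820, 0.550 and 0.448 CPM in control GFP-positive libraries and 2.22, 1.37 and 1.43 CPM in treated ones, from 14 to 22 counts and 48 to 74 counts per library. Every treated library exceeded every control, and ITPR1 rose by 1.54 on the log2 scale (SE 0.40, adjusted p = 0.0016). In GFP-negative cells it measured 0.953, 1.88 and 2.72 CPM in controls and 1.38, 1.67 and 1.59 CPM after treatment. Here the treated values fell within the range of the controls (log2 fold change -0.27, SE 0.41, adjusted p = 0.65). The responses of the sort fractions differed by 1.72 (SE 0.58, 95% interval 0.48 to 2.95), which did not pass over all genes (adjusted p = 0.15).

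ITPR2 and ITPR3 encode the subtypes that predominate in glia and epithelia. ITPR2 measured 0.447, 0.521 and 0.480 CPM in control GFP-positive libraries and 1.35, 0.458 and 1.30 CPM in treated ones, so that treated replicate 2 lay within the controls and the groups overlapped. The rise of 1.16 on the log2 scale passed (SE 0.45, adjusted p = 0.032) but rested on 12 to 49 counts per library. It did not pass with DESeq2 (1.14, adjusted p = 0.067), with the trend over GC content removed (0.76, adjusted p = 0.17) or without any 1 of 5 libraries. ITPR3 measured 0.559, 0.666 and 0.704 CPM in controls and 1.17, 0.888 and 1.06 CPM after treatment, with no overlap and a log2 fold change of 0.75 (SE 0.41) that did not pass (adjusted p = 0.12).

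In GFP-negative cells ITPR2 and ITPR3 varied widely among the controls. ITPR2 measured 1.02, 2.11 and 4.96 CPM in controls and 7.04, 6.18 and 3.82 CPM after treatment (log2 fold change 1.06, SE 0.51, adjusted p = 0.14). ITPR3 measured 1.54, 2.91 and 5.16 CPM in controls and 6.05, 4.62 and 3.47 CPM after treatment (log2 fold change 0.54, SE 0.43, adjusted p = 0.37). The highest control of both was replicate 3, the library that stood apart. Without it the log2 fold changes were 1.83 for ITPR2 (adjusted p = 0.0049) and 1.05 for ITPR3 (adjusted p = 0.046), so that 5 rather than 3 members passed in GFP-negative cells. In the same library the leukocyte gene PTPRC measured 28.4 CPM and the endothelial and platelet gene PECAM1 18.3 CPM, against 0 and at most 0.329 CPM in the other 2 controls, and the 8 blood and endothelial markers summed to 62.0 CPM against 12.1 and 13.9 CPM. After treatment PTPRC and PECAM1 were below 1 CPM in every GFP-negative library, and the sum of 88.7 to 130 CPM there was nearly all KDR, a receptor of endothelial cells, which rose by 3.41 on the log2 scale (SE 0.21, adjusted p = 1.1e-05). Of the 5 markers tested in GFP-negative cells KDR alone passed, against 31.5% of all genes, and their median log2 fold change was -0.97. In GFP-positive cells KDR rose by 2.76 (SE 0.27, adjusted p = 1.6e-10) and the endothelial cadherin gene CDH5 fell by 2.69 (SE 0.65, adjusted p = 7.4e-04), while GP9, HBG1 and HBG2 were at 0. Among the GFP-negative controls ATP2A3 too was highest in replicate 3. The part of these markers in the values of the IP3 receptors and of ATP2A3 was not tested.

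RYR2 encodes the ryanodine receptor of heart and of many neurons, which amplifies calcium signals by releasing calcium in response to calcium. It measured 3.51, 1.80 and 3.90 CPM in control GFP-positive libraries and 9.48, 6.24 and 8.29 CPM in treated ones. Every treated library lay above every control, and RYR2 rose by 1.45 on the log2 scale (SE 0.27, adjusted p = 3e-05), which held under all 15 alternative settings (1.17 to 1.66). In GFP-negative cells it measured 0.558, 1.17 and 1.12 CPM in controls and 1.42, 2.07 and 2.12 CPM after treatment. These groups did not overlap either, but the log2 fold change of 0.96 (SE 0.39) did not pass (adjusted p = 0.092). The responses of the sort fractions did not differ detectably (0.40, 95% interval -0.66 to 1.47, adjusted p = 0.74). Of 9 striated muscle markers, 3 were at or below 3 counts in control GFP-positive libraries and 3 in treated ones, with MYOD1 and MYH6 in both sets. The 9 markers summed to 4.45 to 6.11 CPM in controls and 5.58 to 6.93 CPM in treated ones. Their part in the values of RYR2 was not tested.

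STIM1 and STIM2 encode the sensors of ER calcium, of which STIM2 reacts to smaller losses. STIM1 measured 45.4, 53.8 and 48.8 CPM in control GFP-positive libraries and 40.3, 38.6 and 31.7 CPM in treated ones. All treated libraries were below all controls, but the log2 fold change of -0.35 (SE 0.17) did not pass (adjusted p = 0.086). It passed in 3 of the 15 alternative settings, with DESeq2 and with the trend over GC content or transcript length removed. In GFP-negative cells STIM1 measured 47.2, 54.2 and 49.3 CPM in controls and 49.8, 66.3 and 46.4 CPM after treatment, with overlap (log2 fold change 0.09, SE 0.18, adjusted p = 0.74). STIM2 overlapped between treated and control libraries in both sort fractions. It averaged 20.8 CPM ± 2.50 (SD, n = 3) in control and 20.1 CPM ± 4.91 in treated GFP-positive libraries, with a 95% interval of the log2 fold change from -0.38 to 0.43.

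ORAI1 encodes the pore of store-operated calcium entry, and it was the member that passed the test for a difference in response between the sort fractions. In GFP-negative cells it measured 29.7, 18.6 and 18.9 CPM in controls and 43.3, 39.5 and 40.5 CPM after treatment. All treated GFP-negative libraries were above the highest control, and ORAI1 rose by 0.85 on the log2 scale (SE 0.22, adjusted p = 0.014). The rise did not pass without control replicate 2 (adjusted p = 0.081) or treated replicate 1 (adjusted p = 0.068). In GFP-positive cells it measured 10.8, 11.6 and 11.2 CPM in controls and 8.16, 8.96 and 8.69 CPM after treatment. There all treated libraries lay below the lowest control, but the log2 fold change of -0.31 (SE 0.20, 95% interval -0.72 to 0.10) did not pass (adjusted p = 0.20). The response of GFP-positive cells minus that of GFP-negative cells was -1.25 (SE 0.26, 95% interval -1.81 to -0.70, adjusted p = 0.021 in the edgeR quasi-likelihood test, Benjamini-Hochberg adjusted). ORAI1 was the only 1 of the 10 members to pass this test, which 2.19% of 16226 genes passed, 1.22% with a negative difference. Over 21 alternative settings the difference ranged from -1.48 to -1.01 and passed in 15. The 6 exceptions left out control GFP-negative replicate 2, control GFP-positive replicate 1 or 2, treated GFP-negative replicate 1, or treated GFP-positive replicate 1 or 3, with adjusted p of 0.05 to 0.11.

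TMCO1 encodes a small ER membrane protein that has been described as a calcium leak channel activated by an overfilled store, and also as part of a complex that inserts membrane proteins at the ER translocon. It measured 57.8, 53.5 and 62.7 CPM in control GFP-positive libraries and 123.2, 141 and 178 CPM in treated ones. In GFP-negative cells it measured 71.9, 54.5 and 56.4 CPM in controls and 148, 109 and 205 CPM after treatment. Every treated library exceeded every control of either sort fraction. TMCO1 rose by 1.41 on the log2 scale in GFP-positive cells (SE 0.17, adjusted p = 1.3e-08) and by 1.32 in GFP-negative cells (SE 0.23, adjusted p = 0.0025). Both rises passed under all 15 alternative settings, at 1.01 to 1.52 and at 1.05 to 1.52. The difference between the responses was 0.01 (95% interval -0.62 to 0.63, adjusted p = 1).

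**Figure D2:**
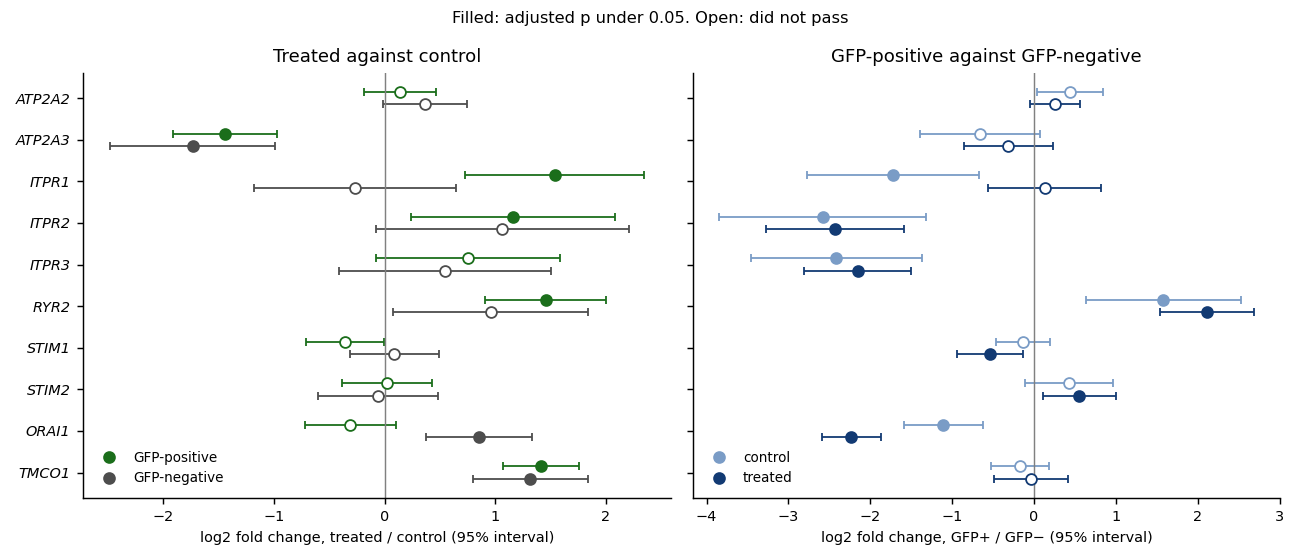
Log2 fold change of each member with its 95% interval, for treated against control libraries in each sort fraction (left) and for GFP-positive against GFP-negative libraries in each treatment (right), with filled points for an adjusted p under 0.05. ATP2A3 and TMCO1 changed the same way in both fractions, while the ORAI1 points lie at -0.31 and 0.85.

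The sort fractions themselves differed in the levels of several release and entry channels, all of which had counts in every library. They also differed in cell type markers, since in control GFP-negative against control GFP-positive libraries the 6 cycling cell markers summed to 529 to 665 against 64.2 to 96.2 CPM, the 6 astroglial markers to 145 to 257 against 11.9 to 16.6 CPM and the 7 mesenchymal markers to 761 to 886 against 260 to 326 CPM. The part of these markers in the differences between the fractions was not tested. In control libraries 5 of the 10 members passed, 1 higher and 4 lower, whereas of the 15404 genes tested 40.2% passed, 17.1% higher and 23.1% lower. All 5 were DEGs, as were 22.8% of all genes, and the groups did not overlap for 7 members, against 53.2% of all genes. RYR2 was higher in GFP-positive cells (log2 fold change 1.58, SE 0.42, adjusted p = 0.014), whereas ITPR1 (-1.72, SE 0.47, adjusted p = 0.015), ITPR2 (-2.58, SE 0.57, adjusted p = 0.005), ITPR3 (-2.42, SE 0.47, adjusted p = 0.0025) and ORAI1 (-1.11, SE 0.22, adjusted p = 0.0026) were lower. Without control GFP-positive replicate 3, ITPR1 (adjusted p = 0.068) and RYR2 (adjusted p = 0.062) did not pass and 3 members remained. ITPR1 also failed without control GFP-positive replicate 2 (adjusted p = 0.071), and RYR2 without control GFP-positive replicate 1 (adjusted p = 0.053). ATP2A2 was 0.44 higher (SE 0.18, adjusted p = 0.075) with no overlap between the groups, and passed in 7 of 16 alternative settings, the replicate block among them.

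After treatment 6 members passed between the sort fractions, 2 higher and 4 lower in GFP-positive cells, whereas of the 15416 genes tested 49.8% passed, 24.9% in each direction. Of the members 4 were DEGs, against 23.7% of all genes, and the groups did not overlap for 5, against 57.8% of all genes. RYR2 was again higher in GFP-positive cells, by 2.11 on the log2 scale (SE 0.27, adjusted p = 4.2e-05). Lower in GFP-positive cells were ORAI1 (-2.23, SE 0.17, adjusted p = 5.4e-07), ITPR2 (-2.43, SE 0.39, adjusted p = 2.5e-04) and ITPR3 (-2.15, SE 0.30, adjusted p = 9.6e-05). STIM1 was 0.54 lower (adjusted p = 0.028) and STIM2 0.56 higher (adjusted p = 0.04), but STIM1 passed in 12 and STIM2 in 9 of 16 alternative settings. ITPR1, which was lower in GFP-positive cells among the controls, was at a log2 fold change of 0.13 (SE 0.32, adjusted p = 0.76) after treatment.

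Set side by side per kilobase of exon, the members covered a wide range. In control GFP-positive libraries ATP2A2 stood highest at 30.4 CPM per kb ± 5.33 (SD, n = 3), followed by TMCO1 at 10.9 ± 0.857. With the union of exons as length, STIM1 at 4.10 ± 0.354 and ORAI1 at 3.93 ± 0.131 did not differ beyond their spread. With the longest transcript as length, every STIM1 value lay above every ORAI1 value in these libraries, beyond their spread. By the union of exons STIM2 at 2.51 ± 0.302 and ATP2A3 at 1.79 ± 0.363 came next. The release channels were lowest, with RYR2 at 0.173 ± 0.0630, ITPR3 at 0.0652 ± 0.00760, ITPR2 at 0.0347 ± 0.00267 and ITPR1 at 0.0189 ± 0.00599 CPM per kb. ITPR1 lies above ITPR2 when the longest transcript (9908 bases) replaces the union of exons (32120 bases), at 0.0612 against 0.0384 CPM per kb. After treatment TMCO1 reached 27.7 CPM per kb ± 5.22 in GFP-positive libraries, against 32.0 ± 2.49 for ATP2A2. In treated GFP-negative libraries TMCO1 at 28.9 ± 9.11, ATP2A2 at 27.1 ± 2.78 and ORAI1 at 14.4 ± 0.686 led the members. The closeness of TMCO1 and ATP2A2 depended on the length used. With the longest transcripts TMCO1 was at 33.0 ± 6.23 and ATP2A2 at 53.0 ± 4.12 in treated GFP-positive libraries. In treated GFP-negative libraries they were at 34.5 ± 10.9 and 44.9 ± 4.61.

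Within its family each member took a different share, computed per kilobase with the other genes of the family. Among the SERCA pumps ATP2A2 made up 91.6% ± 2.16 (SD, n = 3) in control and 95.5% ± 0.628 in treated GFP-positive libraries, and ATP2A3 5.49% ± 1.42 and 1.90% ± 0.581. In GFP-negative cells the share of ATP2A3 was 10.6% ± 3.92 in controls and 2.77% ± 0.341 after treatment, and the ranges did not overlap in either fraction. Among IP3 and ryanodine receptors RYR1, the skeletal muscle type, held the largest share in GFP-positive libraries (48.5% ± 5.75 in controls), with RYR2 at 26.2% ± 7.97 in controls and 32.9% ± 3.95 after treatment. In GFP-negative libraries ITPR3 (36.9% ± 6.23 in controls, 34.4% ± 3.65 after treatment) and ITPR2 (20.9% ± 7.66 and 29.2% ± 2.77) held more than RYR2 (6.55% ± 1.62 and 8.07% ± 3.20). Among the ORAI channels ORAI1 made up 18.2% ± 0.824 in control and 17.9% ± 0.409 in treated GFP-positive libraries, but 31.4% ± 4.41 and 43.3% ± 3.04 in GFP-negative ones. ORAI2 was the largest in GFP-positive libraries, at 54.9% ± 2.48 in controls and 62.3% ± 3.72 after treatment. STIM1 held 62.0% ± 3.66 of the STIM pair in control GFP-positive and 71.0% ± 5.86 in control GFP-negative libraries.

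**Figure D3:**
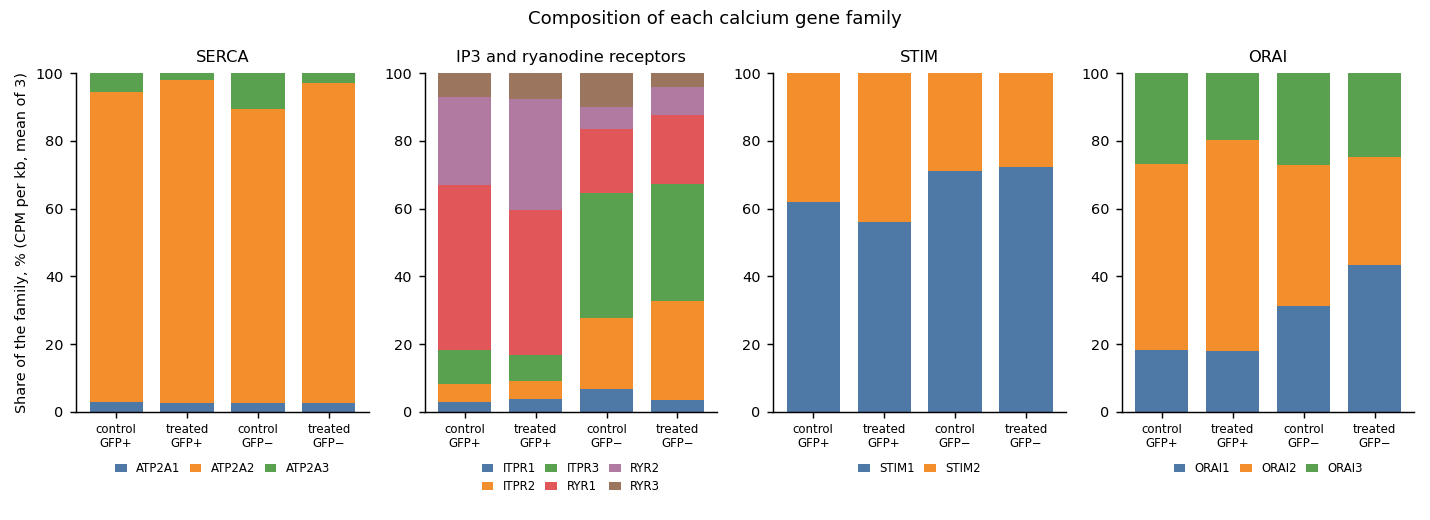
Share of each gene in its family (percent of the family's summed CPM per kilobase of exon, mean of 3 libraries) in the 4 groups. ATP2A2 fills most of the SERCA bar in every group, RYR1 and RYR2 lead in GFP-positive libraries, ITPR2 and ITPR3 in GFP-negative ones, and the ORAI1 segment is largest in treated GFP-negative libraries at 43.3%.

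The remaining genes of these families were also followed. In GFP-positive cells RYR1 rose by 0.96 on the log2 scale (SE 0.23, adjusted p = 6.8e-04) and RYR3 by 1.27 (SE 0.35, adjusted p = 0.0027), while ORAI3 fell by 0.72 (SE 0.21, adjusted p = 0.0045). ORAI2 (log2 fold change -0.11, SE 0.16) and ATP2A1 (-0.04, SE 0.27) did not pass. In GFP-negative cells only RYR1 of these 5 passed (1.09, SE 0.34, adjusted p = 0.035), with RYR3 at -0.47 and ORAI3 at 0.27. The shares of all genes that passed were 50.9% in GFP-positive and 31.5% in GFP-negative cells. Among the muscle markers in GFP-negative cells DES, an intermediate filament gene, rose by 1.82 (SE 0.23, adjusted p = 4.3e-04) and the cardiac actin gene ACTC1 fell by 1.54 (SE 0.37, adjusted p = 0.012), with a median of -0.85 over the 4 tested and 5 of 9 at or below 3 counts after treatment. Their part in the rise of RYR1 was not tested. For ORAI3 the response of GFP-positive minus that of GFP-negative cells was -1.07 (SE 0.28, adjusted p = 0.057). For RYR3 this difference was 1.66 (SE 0.49, adjusted p = 0.098). Neither passed the test over all genes. On simulated counts this test recovered 41 of 100 changes of 2-fold, so not passing does not show equal responses.

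Of 7 regulators of the pumps 3 could be tested in GFP-positive cells, where TMX1 and STRIT1 rose, and 2 in GFP-negative cells, where 0 passed. By comparison, 50.9% of all genes passed in GFP-positive cells, 26.5% higher, and 31.5% passed in GFP-negative cells. TMX1, a thioredoxin-related ER membrane protein that restrains SERCA2, rose by 1.09 in GFP-positive cells (SE 0.20, adjusted p = 1.9e-05) and was at 0.45 in GFP-negative cells (adjusted p = 0.19). STRIT1, which encodes the SERCA-activating micropeptide DWORF and was singled out after its values were seen, had 0 counts in all 6 control libraries. It had 29 to 38 counts in treated GFP-positive libraries (0.830 to 1.14 CPM) and 7 to 27 counts in treated GFP-negative libraries (0.255 to 0.956 CPM). The treated means were 0.940 CPM in GFP-positive and 0.591 CPM in GFP-negative libraries. Set against 3 counts per control library, these means were at least 8.40-fold and at least 4.92-fold higher. The lowest treated libraries stood closer to that limit.

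Most of the tested genes among the ER leak channels and the partners of TMCO1 rose together with it. Of 7 genes tested, 5 rose, 2 did not pass and 0 fell in each sort fraction. CCDC47, TMBIM6, SEC61A1 and CAMLG were among the 5, whereas TMEM147 and NOMO1 of the same list were not. Of all genes 26.5% rose in GFP-positive and 15.3% in GFP-negative cells. The list median was 0.64 in GFP-positive and 0.83 in GFP-negative cells, against 0.03 and -0.01 over all genes. CCDC47, which joins TMCO1 at the translocon, rose by 1.68 (SE 0.17, adjusted p = 6.1e-10) and 1.12 (SE 0.17, adjusted p = 0.0011). SEC61A1, the translocon pore, rose by 1.68 (SE 0.16, adjusted p = 9.1e-11) and 1.58 (SE 0.16, adjusted p = 1.3e-04). CAMLG, a receptor for tail-anchored membrane proteins, rose by 1.71 (SE 0.17, adjusted p = 2.6e-10) and 1.42 (SE 0.21, adjusted p = 0.001).

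Calcium-binding proteins of the ER and Golgi lumen held the largest shift of the lists. In each sort fraction 12 of 16 genes tested rose and 1, SELENON, fell, with a median of 1.48 in GFP-positive and 1.32 in GFP-negative cells. Rises were called for 26.5% and 15.3% of all genes. HSP90B1, the ER form of the HSP90 chaperones, rose by 2.69 (SE 0.17, adjusted p = 5.2e-15) in GFP-positive and 2.04 (SE 0.19, adjusted p = 9.3e-05) in GFP-negative cells. NUCB2, a calcium-binding protein of the secretory pathway, rose by 2.69 (SE 0.20, adjusted p = 1.8e-13) and 2.15 (SE 0.23, adjusted p = 2e-04). Many proteins of this list are also chaperones of the unfolded protein response.

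Of 20 regulators of IP3 and ryanodine receptors, 4 rose and 7 fell in GFP-positive cells and 0 rose and 4 fell in GFP-negative cells, or 11 and 4 genes called, against 50.9% and 31.5% of all genes. JPH4, a neuronal junctophilin that ties the ER to the plasma membrane, fell by 1.39 (SE 0.17, adjusted p = 1.4e-08) and by 1.17 (SE 0.23, adjusted p = 0.004), and ITPRIP, an inhibitor of IP3 receptors, fell by 1.42 (SE 0.18, adjusted p = 4.7e-08) and by 0.73 (SE 0.18, adjusted p = 0.014). Of 12 regulators of STIM, ORAI and ER contacts with the plasma membrane, 4 rose and 4 fell in GFP-positive cells and 4 rose and 2 fell in GFP-negative cells. SARAF, which turns store-operated entry off, rose by 1.57 (SE 0.17, adjusted p = 9.2e-10) and 1.22 (SE 0.15, adjusted p = 4.3e-04). SELENOK, an ER selenoprotein, rose by 1.65 (SE 0.19, adjusted p = 4.6e-09) and 1.73 (SE 0.32, adjusted p = 0.003), and CRACR2B, a regulator of ORAI channels, fell by 1.48 in GFP-positive cells (SE 0.30, adjusted p = 9.4e-05).

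Enzymes that make or remove IP3 responded differently between the sort fractions in some cases. In GFP-positive cells 7 of 15 rose and 5 fell, and in GFP-negative cells 2 rose and 3 fell. Of all genes 50.9% passed in GFP-positive and 31.5% in GFP-negative cells. The phospholipase gene PLCE1 rose by 2.13 (SE 0.36, adjusted p = 6.2e-06) in GFP-positive cells and fell by 1.09 (SE 0.32, adjusted p = 0.026) in GFP-negative cells. PLCG2 rose by 3.87 (SE 0.36, adjusted p = 5.2e-11) in GFP-positive cells and was at -0.54 (SE 0.57, adjusted p = 0.51) in GFP-negative cells, and PLCD4 rose by 2.04 in GFP-positive cells (SE 0.33, adjusted p = 3.1e-06).

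Among genes that carry calcium out of the cytosol, more fell than rose. Of 11 plasma membrane and Golgi pumps and exchangers tested, 1 rose (ATP2C1, the Golgi pump) and 6 fell in GFP-positive cells. In GFP-negative cells 0 rose and 4 fell. The medians were -0.73 in GFP-positive and -0.66 in GFP-negative cells. Of all genes 26.5% rose and 24.4% fell in GFP-positive cells, and 15.3% rose and 16.2% fell in GFP-negative cells. ATP2B2, a plasma membrane calcium pump of neurons, fell by 2.26 (SE 0.34, adjusted p = 8.4e-07) in GFP-positive and by 1.35 (SE 0.45, adjusted p = 0.047) in GFP-negative cells. SLC8A2, a sodium-calcium exchanger, fell by 1.54 (SE 0.19, adjusted p = 2.2e-08) and by 1.32 (SE 0.25, adjusted p = 0.0035), and SLC24A3 fell by 1.36 (SE 0.22, adjusted p = 2.4e-06) and by 1.84 (SE 0.27, adjusted p = 0.001). Of 8 neuron markers 5 fell in GFP-positive and 6 in GFP-negative cells, whereas SYT1 and SNAP25, genes of synaptic vesicle release, rose in both. The markers had sums of 14428 to 17336 CPM in control and 7316 to 9107 CPM in treated GFP-positive libraries and of 7243 to 7783 CPM and 4311 to 5116 CPM in GFP-negative ones, and their part in these falls was not tested.

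**Figure D4:**
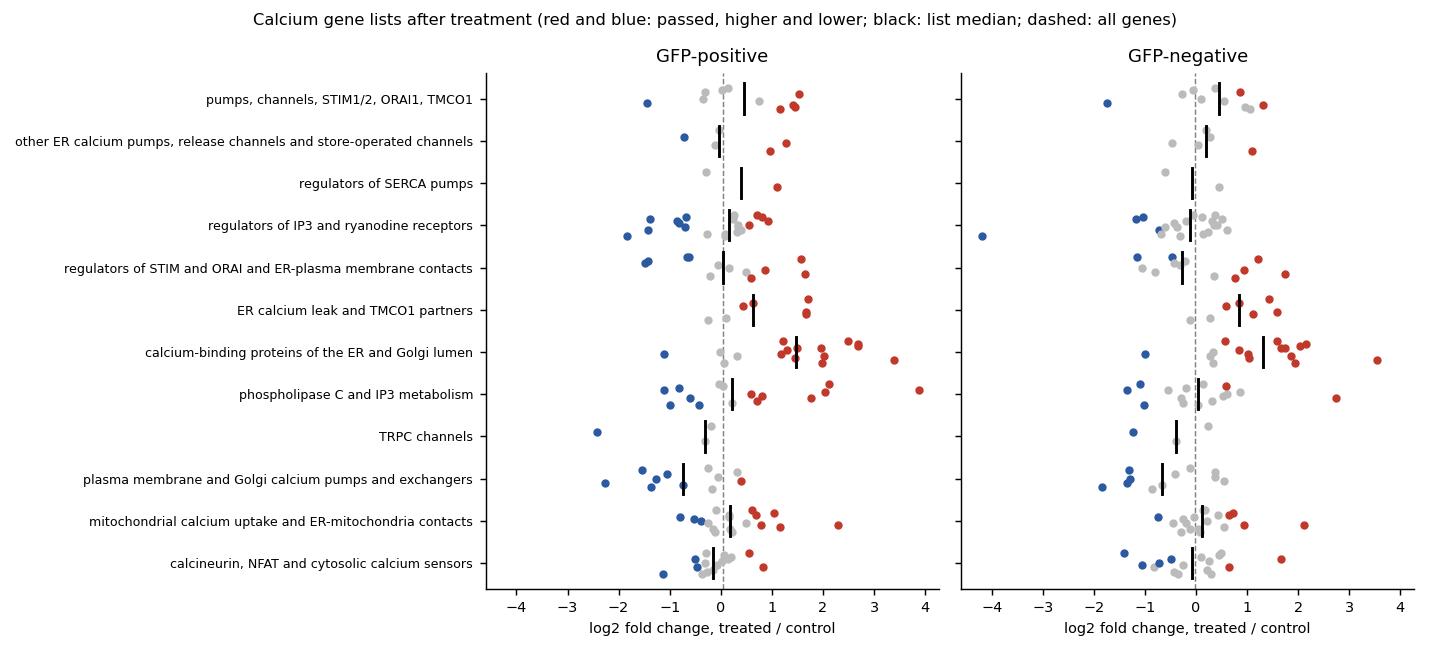
Log2 fold change (treated against control) of every gene tested in the members and the 11 calcium lists, in GFP-positive (left) and GFP-negative (right) cells, with red and blue points for genes that passed, grey points for those that did not, a black bar for the list median and a dashed line for the median of all genes. STRIT1, which was at 0 in the controls, is left out of the points and of its list's median. Lumenal calcium-binding proteins lie highest with medians of 1.48 and 1.32, and plasma membrane and Golgi pumps lowest with -0.73 and -0.66.

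The mitochondrial and calcineurin lists, which act after calcium release, held changes in both directions. Of 18 genes of mitochondrial calcium uptake and ER contacts, 6 rose and 3 fell in GFP-positive cells and 4 rose and 1 fell in GFP-negative cells. HSPA9, the mitochondrial chaperone that links IP3 receptors to VDAC, rose by 2.29 (SE 0.16, adjusted p = 9.5e-14) and 2.12 (SE 0.15, adjusted p = 2.5e-05), and the uniporter regulators MICU2 and MICU3 rose by 1.04 (SE 0.20) and 1.17 (SE 0.22) in GFP-positive cells. Of 15 calcineurin, NFAT and calcium sensor genes, 2 rose and 3 fell in GFP-positive cells, and of 16 tested in GFP-negative cells 2 rose and 4 fell. CALM3, 1 of the calmodulin genes, fell by 1.14 (SE 0.16, adjusted p = 3.3e-07) and by 1.05 (SE 0.16, adjusted p = 9.9e-04). Of the 3 TRPC channels tested, 1 fell in each sort fraction, TRPC4, by 2.42 (SE 0.39, adjusted p = 2.7e-06) and by 1.24 (SE 0.35, adjusted p = 0.024). Over all 125 genes tested of these 11 lists, 45 rose and 31 fell in GFP-positive cells, 60.8% in all against 50.9% of all genes, and 30 rose and 20 fell in GFP-negative cells, 40% against 31.5%.

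For the members that were DEGs, the genes with the most similar profile over the 12 libraries were found by the root mean square difference of centred log2 CPM among 16226 genes. TMCO1 was nearest to DDX50 (0.145), UCHL3 (0.149) and SBDS (0.155), while TMCO1 itself spread by 0.697 around its mean on the same scale. ATP2A3 was nearest to PREX2 (0.231), CRIP1 (0.286) and FAM78A (0.295). RYR2 was nearest to RFPL1S (0.243), NMNAT2 (0.268) and SLC7A14 (0.287). ITPR1 was nearest to PPL (0.223), AASS (0.233) and ARAP2 (0.241), and ITPR2 to TNFRSF10A (0.326), IQGAP1 (0.336) and SNAP23 (0.336). These profiles describe the 4 groups and share the same libraries and depth.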

How the data were processed

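RNA-seq of sorted GFP-positive and GFP-negative cells from WA09-Islet1-GFP motor neuron cultures, control or treated, was analysed in 12 libraries. Per the study's methods, single-end reads were aligned to hg38 by HISAT2 using Ensembl gene models, and the processing notes of the submitters name featureCounts. The authors deposited raw counts per gene symbol, without normalization, and 0 columns of per-sample values were left unused. Replicates came from separately thawed cells.

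Counts were scaled by TMM and tested with edgeR 4.0.16 in R 4.3.3 (quasi-likelihood, filterByExpr with a minimum count of 10 and a minimum total of 15, Benjamini-Hochberg adjustment over all genes tested). A gene passed at an adjusted p under 0.05, and a DEG also changed at least 2-fold. Each comparison used its own 6 libraries, and the difference of the responses all 12. No exact permutation p is given, because 3 against 3 libraries cannot reach below 0.1. The fits were first tested on simulated counts.

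Alternatives were DESeq2 1.42.0, RLE scaling, scaling to library size, a replicate block, no low-count filter, a stricter filter of 10 counts in each library, all 12 libraries in the fit, glmTreat and each library left out. Removal of trends over GC content or exon length (loess, span 0.5) was added after seeing the data. Members, lists and markers were chosen with earlier results of these data known. Named list genes are up to 3 DEGs of GFP-positive cells per list with the largest change and a mean of at least 1 CPM, every gene of the families of the members, the 3 most similar profiles of each member that was a DEG, and checks of sort and stress. Lengths and positions came from GENCODE release 44 and not from the annotation used for counting, and levels per kilobase used the union of exons. Similar profiles used log2(CPM + 0.5). Intervals and the limit of 3 counts cover counting or replicate error only. Between same-numbered GFP-positive and GFP-negative libraries of treated cultures, residuals about the group mean had correlations of 0.16, 0.20 and 0.36 across 16226 genes. In control cultures these correlations were 0.28, 0.08 and 0.21. The numbers were therefore taken to pair the sort fractions, a pairing that the replicate block used and the main tests did not. A gene of the lists is not reported here by name. Figures were drawn with matplotlib 3.10.9.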

Additional observations from a re-analysis of the deposited data

Results flagged for a closer look

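The response of ORAI1 to treatment differed between the sort fractions, at -1.25 on the log2 scale for GFP-positive minus GFP-negative cells (SE 0.26, adjusted p = 0.021, edgeR's quasi-likelihood test of the interaction). All 3 treated libraries lay below their controls in GFP-positive cells and all 3 above them in GFP-negative cells.

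The response of the phospholipase gene PLCG2 differed by 4.33 (SE 0.73, adjusted p = 0.0065), with a mean of 0.324 CPM in control and 4.58 CPM in treated GFP-positive libraries, and 3.19 and 2.21 CPM in GFP-negative ones. The response of PLCE1 differed by 3.13 (SE 0.45, adjusted p = 0.0024), with 0.702 and 2.93 CPM in GFP-positive and 4.70 and 2.23 CPM in GFP-negative libraries.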

How the results depend on the processing

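Each member was refitted under 15 alternatives for treated against control, 16 for the sort fractions and 21 for the difference of the responses, and no called member changed direction. The number of members passing was 4 to 5 in GFP-positive cells when 1 library was left out, 2 to 5 in GFP-negative cells (5 without control GFP-negative replicate 3), 3 to 7 between the sort fractions in controls (3 without control GFP-positive replicate 3), 4 to 6 between them after treatment, and 0 to 1 for the difference of the responses. When a leave-one-out fit left 2 libraries in an arm, the spread was pooled over the fit.

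The replicate block kept the calls of all members but ITPR2 in GFP-positive cells (1.04, adjusted p = 0.067), left 3 in GFP-negative cells, and added ATP2A2 (0.44, adjusted p = 0.0098) and STIM2 (0.46, adjusted p = 0.041) between the sort fractions of controls, for 7 members. Between treated and control libraries the numbers were only shared. There, deviations of same-numbered libraries correlated at -0.02, 0.10 and 0.13 in GFP-positive cells and at -0.05, 0.28 and 0.03 in GFP-negative cells. Between control sort fractions they correlated at 0.28, 0.08 and 0.21, and each library correlated best with its own number. The treated sort fractions showed the same order, and the main fits left this pairing out. For the treated sort fractions the block kept all 6 calls. With each culture as a block, 1264 genes passed the difference of the responses in place of 355 (ORAI1 at -1.29, adjusted p = 0.0047), 1146 with the GC trend also removed, and 789 with DESeq2.

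Leaving out 1 library gave 141 to 414 genes for that difference. In GFP-negative cells 2892 genes passed without control replicate 2 and 2770 without treated replicate 1, in place of 4887, and in both cases ORAI1 did not pass (0.74 and 0.80). With glmTreat against a 2-fold change the DEGs numbered 1648 in place of 3675 in GFP-positive and 812 in place of 2844 in GFP-negative cells, and 1703 in place of 3506 and 1560 in place of 3658 between the sort fractions of controls and treated cells, with 1, 0, 2 and 4 members. With the longest transcript in place of the union of exons, 42 to 44 of 45 pairs of members kept their order of levels, and 18 of 36 family shares moved by more than the SD between libraries. Depth limits the IP3 receptors most, at 12 to 23 counts per control GFP-positive library.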
